A study of Mus musculus with 6 samples.

Results

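Myelin and oligodendrocyte genes were followed across sorted olfactory sensory neurons (OSNs), the nasal epithelium that remained after those neurons were taken out, and brain. The set was Mbp, Mog, Mag, Mobp, Cnp, Cldn11, Mal, Sox10 and Olig1, and every probe set whose only annotated symbol was one of these was taken, with the older symbol Cnp1 read as Cnp. This gave 25 of 45137 probe sets, for 9 of 18193 genes, with 23 probe sets on chip A and 2 on chip B (both Mobp). All 3 populations came from OMP-GFP mice, in which GFP stands in for the Omp coding region and marks mature olfactory and vomeronasal sensory neurons. The neurons were collected by fluorescence (about 500000 cells per RNA sample), the residual epithelium held what was left (about 2500000 cells), and brain was taken without the olfactory bulbs. The labels state neither age, sex nor number of animals, nor whether the mice carried 1 or 2 copies of the GFP allele. Each population was measured on 1 Affymetrix array per chip, so there was no replicate, no test between populations was possible and no p-value is given.

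Myelin is the stack of glial membrane wrapped around axons, made by oligodendrocytes in the brain and by Schwann cells in peripheral nerve. The axons of OSNs are unmyelinated and are bundled by olfactory ensheathing cells, which lie below the epithelium and around the nerve. The set covers proteins that compact the membrane (Mbp, Mobp), surface proteins of the sheath (Mog, Mag), the enzyme of its cytoplasmic channels (Cnp), proteins of its junctions and lipid traffic (Cldn11, Mal) and transcription factors of the oligodendrocyte lineage (Sox10, Olig1). Several of these genes are also used outside myelin: Sox10 by other neural crest derived glia and gland cells, Mal by epithelia and lymphocytes, and Mbp by cells that make the golli proteins from an upstream start of the same gene.

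The sort was checked by Omp, which on probe set 1422200_at reached 11057 in OSNs against 249 in residual epithelium and 201 in brain. The other Omp probe set, 1422199_at, was below the floor in all 3. Signals are intensities on a linear scale, with array medians from 194.65 to 257.7. Signals below the lower quartile of their chip (called the floor, 70.3 for chip A and 79.7 for chip B) were raised to it before ratios were taken, so a fold with a floored denominator is given as "at least" and values below the floor have no order. A probe set was called higher or lower where the ratio was at least 2-fold and the higher signal reached the chip median (222 on chip A, 243.7 on chip B). The only repeats were the 100 probe sets present on both chips, whose log2 ratios differed between chips with an SD of 0.25 for OSNs over residual epithelium, 0.29 for OSNs over brain and 0.34 for residual epithelium over brain. The mean differences, chip A minus chip B, were 0.23, -0.19 and -0.42 in the same order. These SDs and means hold no spread between animals.

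Most probe sets of the set formed a brain pattern. Those not called between residual epithelium and brain were Olig1, a pair of Mbp probe sets and Sox10 1424985_a_at (1.94-fold below brain). Of the Mbp pair, 1425263_a_at was still called lower in OSNs than in brain. All 25 probe sets reached the chip median in brain, against 10 in residual epithelium and 5 in OSNs, and 13 lay below the floor in OSNs, 7 in the residual epithelium and 0 in brain. In OSNs against brain, 23 of 25 were called lower and 0 higher, with a median log2 ratio of -4.36 against 0.00 over all probe sets. Over the whole of chip A, 12.8% of probe sets were called lower and 9.37% higher in this comparison, and on chip B 12.8% and 10.4%. In residual epithelium against brain, 21 of 25 were called lower and 0 higher (median -3.11, against 0.00 over all probe sets), where 12.6% of chip A was lower and 12.9% higher, and 12.1% and 12.2% of chip B. In OSNs against residual epithelium, 5 of 25 were called lower and 0 higher (median -0.46, against 0.00 over all), where 10.6% of chip A was lower and 7.06% higher, and 9.33% and 7.34% of chip B. Only 10 of the 25 passed the signal filter in that last comparison, and the 5 calls were all probe sets of Cnp or Mbp. With 1 probe set per gene, 1 of 9 members was lower there and 0 higher. Over all genes, 12.4% were lower and 8.61% higher, so the lower count is near that share. Against brain, 20 probe sets of the OSN comparison and 15 of the residual comparison passed through brain alone, which fixes their direction but not the size of the ratio. In bulk RNA, fewer cells of a type and less RNA per cell cannot be told apart.

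**Figure D1:**
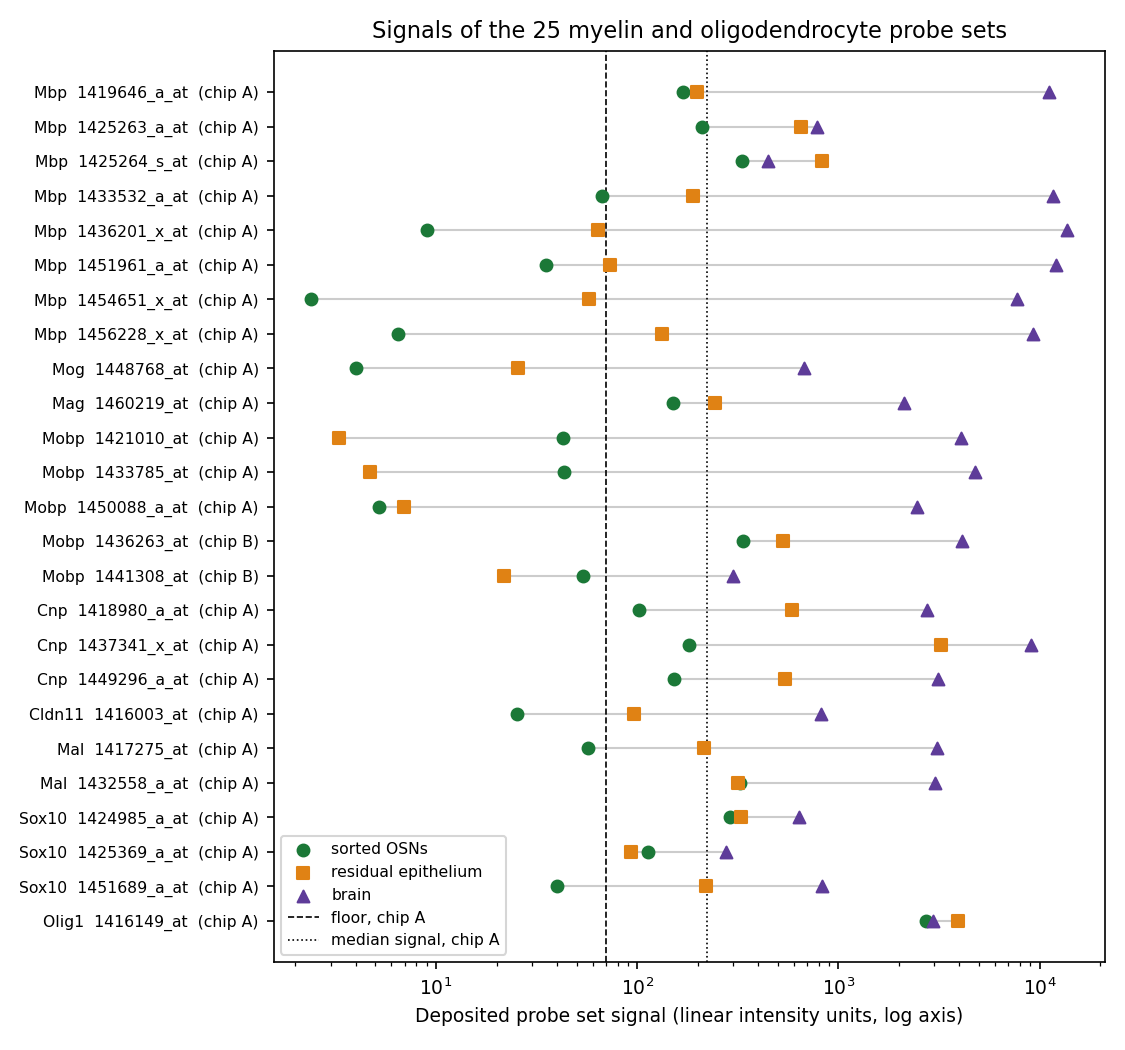
Deposited signal (linear intensity, log axis) of each of the 25 probe sets in sorted OSNs (circles), residual epithelium (squares) and brain (triangles), 1 array per point; the dashed line is the chip A floor of 70.3 and the dotted line the chip A median of 222. Brain is the highest point for every probe set except Mbp 1425264_s_at and Olig1.

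Mbp encodes myelin basic protein, which holds the inner faces of the membrane together. It had 8 probe sets, and 6 of them shared one pattern, with brain signals from 7687.2 to 13687.1, residual signals from 57.3 to 198.2 and OSN signals from 2.4 to 168.3. On 1419646_a_at, the probe set of these 6 that was above the floor everywhere, the signal was 168.3 in OSNs, 198.2 in the residual epithelium and 11201.6 in brain. Brain stood far above the others there, and OSNs and residual epithelium were close together, with a 1.18-fold gap that no call reached. Brain was 56.5-fold above residual epithelium on that probe set and 66.6-fold above OSNs. On 1436201_x_at it was at least 195-fold above each, since the OSN signal of 9.0 and the residual signal of 64.1 lay below the floor. Among the 6, the ratio of brain to residual epithelium ran from 56.5-fold to at least 195-fold. The small gap between the epithelial populations was not shared by all 6. OSNs were at least 2.70-fold below residual epithelium on 1433532_a_at and at least 1.90-fold below it on 1456228_x_at, both under the signal filter. On 1451961_a_at the bound was 1.04-fold, and on 1436201_x_at and 1454651_x_at both epithelial values were below the floor.

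The other 2 Mbp probe sets behaved differently. On 1425263_a_at the signals were 209.6 in OSNs, 654.4 in the residual epithelium and 785.6 in brain. Residual epithelium and brain were within 1.20-fold of each other, and OSNs were 3.12-fold below residual epithelium and 3.75-fold below brain. On 1425264_s_at the signals were 333.1, 833.3 and 446.4 in the same order, so residual epithelium was the highest. It exceeded brain by 1.87-fold, short of a call, and OSNs by 2.50-fold. The log2 ratio of residual epithelium over brain thus ran from -7.61 to 0.90 across the 8 probe sets of this gene (SD 3.28). The sources used here do not say which Mbp transcripts each probe set reads.

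Mobp encodes a small basic protein of compact central myelin. On chip A its 3 probe sets had brain signals of 4756.4, 4074.1 and 2452.2 (1433785_at, 1421010_at and 1450088_a_at), with residual signals of 4.7, 3.3 and 6.9 and OSN signals of 43.2, 42.7 and 5.2. All 6 epithelial values were below the floor, so brain was at least 67.7-fold, 58.0-fold and 34.9-fold above each epithelial population. On chip B the contrast was weaker on 1436263_at, which had 336.0 in OSNs, 533.1 in the residual epithelium and 4109.7 in brain, so both epithelial signals were above the chip median and brain was 12.2-fold and 7.71-fold above them. The other, 1441308_at, had 53.6, 21.9 and 300.2, with both epithelial values below the floor and brain at least 3.77-fold higher, a bound that cannot be ranked against the others. The chips were scaled separately, so only ratios are set side by side here, and ratios too differed between the chips on average.

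Mog, which encodes a protein of the outermost sheath surface, and Mag, which encodes a receptor on the innermost membrane facing the axon, had 1 probe set each. The Mog signal was 4.0 in OSNs, 25.6 in the residual epithelium and 678.0 in brain. Only brain was above the floor, by at least 9.64-fold. Mag had 151.4, 244.4 and 2115.0 in the same order. All 3 Mag values were above the floor, and brain was 14.0-fold above OSNs and 8.65-fold above residual epithelium, whereas the 1.61-fold gap between the epithelial populations was not called.

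Cnp, the gene of the cyclic nucleotide phosphodiesterase that keeps cytoplasmic channels of the sheath open, was the member with the clearest step between the epithelial populations. On 1437341_x_at the signals were 181.3 in OSNs, 3236.3 in the residual epithelium and 9062.2 in brain. On 1418980_a_at they were 102.3, 589.2 and 2771.6, and on 1449296_a_at they were 151.9, 542.0 and 3117.0. The order was the same on each of the 3, with OSNs lowest and brain highest. OSNs were 17.9-fold, 5.76-fold and 3.57-fold below residual epithelium, so the probe sets shared the direction and differed in size by 2.32 log2 units. Residual epithelium was 2.80-fold, 4.70-fold and 5.75-fold below brain. Cnp and the pair of Mbp probe sets above made up all 5 calls of this set between OSNs and residual epithelium.

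Cldn11, a claudin that seals the layers of central myelin, had 25.4 in OSNs, 96.7 in the residual epithelium and 817.5 in brain. Brain was 8.45-fold above residual epithelium and at least 11.6-fold above OSNs, where the gene was below the floor. Mal encodes a membrane protein that sorts lipids and proteins into myelin and into the apical surface of epithelia. Its probe set 1432558_a_at had 325.0, 317.1 and 3028.1 in OSNs, residual epithelium and brain, with the epithelial populations at the same level (1.02-fold) and brain 9.32-fold and 9.55-fold above them. On its probe set 1417275_at the signals were 56.7, 214.9 and 3091.9. There the OSN value was below the floor, brain was 14.4-fold above residual epithelium, and the gap between epithelial populations was at least 3.06-fold but lay below the signal filter.

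Sox10 encodes the transcription factor that oligodendrocytes, Schwann cells and ensheathing cells share. Its signals in OSNs, residual epithelium and brain were 288.1, 327.2 and 636.1 on 1424985_a_at, 112.9, 93.1 and 275.6 on 1425369_a_at, and 40, 218.7 and 833.1 on 1451689_a_at. Brain was highest on each, by 1.94-fold to 3.81-fold over residual epithelium, a range that overlapped that of Cnp. For OSNs against residual epithelium the probe sets went from 1.21-fold higher to at least 3.11-fold lower, and none was called. Olig1, a basic helix-loop-helix factor of the oligodendrocyte lineage, had 2721.0 in OSNs, 3916.5 in the residual epithelium and 2969.0 in brain. It was above the chip median in all 3 populations and within 2-fold in every comparison, at 1.44-fold for OSNs against residual epithelium, 1.09-fold for OSNs against brain and 1.32-fold for residual epithelium against brain. The Olig1 values go against the label of a brain glial gene in these arrays, and with 1 probe set there was no second reading of it.

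Put on a common scale, the residual signal as a percentage of brain ordered the genes. For the 6 concordant Mbp probe sets it was at most 1.77%, and for Mobp on chip A at most 2.87%. It was 6.95% and 10.5% for the Mal probe sets, at most 10.4% for Mog, 11.6% for Mag and 11.8% for Cldn11. Mobp on chip B gave 13.0% for the probe set above the floor. The mean difference between chips in this log2 ratio was -0.42 (chip A minus chip B). The place of that chip B value relative to Mag and Cldn11 on chip A is therefore not settled. Cnp followed at 17.4% to 35.7%, then Sox10 at 26.3% to 51.4% and Olig1 at 132%. Mag, Cldn11 and the higher Mal probe set lay closer together than the 2 Mal probe sets did, so their order is not separated by the spread between probe sets. Mog has only an upper bound and no place among them, and the ranges of Cnp and Sox10 overlapped. The other chip B probe set of Mobp allowed up to 26.5%, and the remaining 2 Mbp probe sets lay at 83.3% and 187%, so neither gene has a single place in this order.

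**Figure D2:**
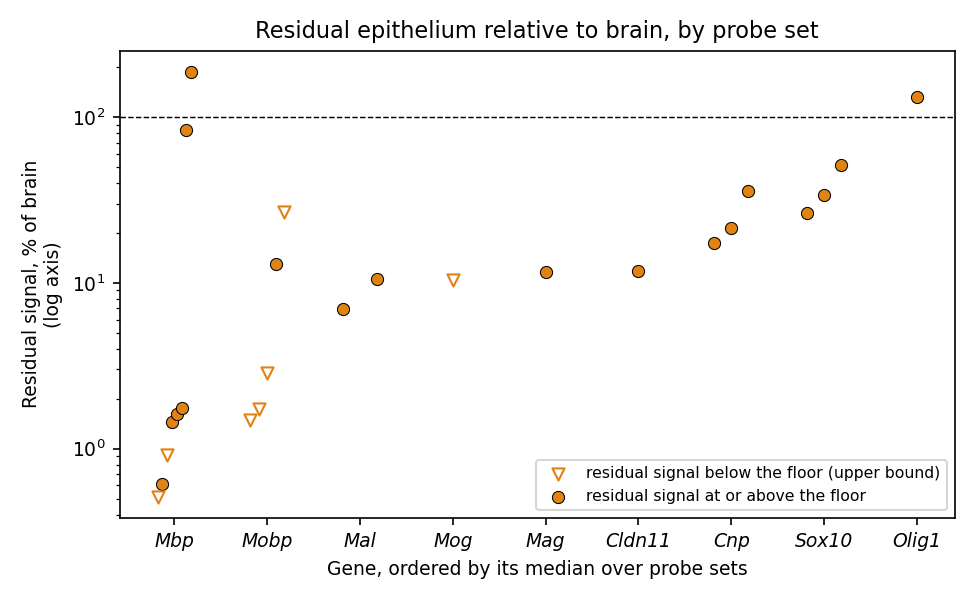
Residual epithelium signal as a percentage of brain (log axis) for each probe set, by gene in order of the median over its probe sets; filled circles are measured values, open triangles are upper bounds where the residual signal was below the floor, and the dashed line marks 100%. Most Mbp points lie under 2% while 2 lie at 83.3% and 187%, and Olig1 lies at 132%.

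Most of these genes shared the brain pattern, and the RefSeq promoters (GRCm38.p6) of the set were searched for the binding word of SOX factors, the family of Sox10. The search covered 8 promoters for 6 of the genes, with none for Mbp, Sox10 or Olig1. For the set, entries on 1 chromosome, that of Mbp, were left out, so no Mbp promoter could have been searched. The share over all promoters kept that chromosome. Only the 250 bases before each start were used. The words searched were the 8 of the form AACAAAG in which the first, the second and the sixth letter may each be A or T, on either strand, with overlapping matches counted, and 21.8% of 32851 promoters in the table held at least 1. Of the 8, 4 did: Mobp with 4 matches, and Cnp, Mog and 1 of 3 Mag starts with 1 each. Those of Mal, Cldn11 and the other 2 Mag starts held none. The windows of these 2 Mag starts overlapped, so the 8 promoters were not all separate sequences. The 4 Mobp matches were repeats of the same word. The sequences of Mobp, which held the most matches, Cnp, the gene with the clearest step between epithelial populations, and Mog, below the floor in both, are shown with the matched words in capitals. Mobp lies at chr9:120149492-120149741 (+ strand), Cnp at chr11:100574689-100574938 (+ strand) and Mog at chr17:37023399-37023648 (- strand).
Mobp: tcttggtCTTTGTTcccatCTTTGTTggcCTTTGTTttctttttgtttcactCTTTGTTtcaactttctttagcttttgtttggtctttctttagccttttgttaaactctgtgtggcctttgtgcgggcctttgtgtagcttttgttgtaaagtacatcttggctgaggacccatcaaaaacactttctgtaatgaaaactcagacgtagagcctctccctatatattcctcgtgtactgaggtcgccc
Cnp: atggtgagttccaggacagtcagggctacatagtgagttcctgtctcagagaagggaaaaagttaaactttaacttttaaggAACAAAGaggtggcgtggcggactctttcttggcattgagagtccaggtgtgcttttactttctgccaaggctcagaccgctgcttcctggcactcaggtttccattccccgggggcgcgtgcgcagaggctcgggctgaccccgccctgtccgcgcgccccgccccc
Mog: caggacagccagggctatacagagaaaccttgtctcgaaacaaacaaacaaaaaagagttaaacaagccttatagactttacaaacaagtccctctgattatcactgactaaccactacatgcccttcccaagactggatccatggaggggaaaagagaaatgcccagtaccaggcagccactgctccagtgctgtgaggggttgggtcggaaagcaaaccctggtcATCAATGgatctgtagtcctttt
The Mobp matches began 243, 231, 221 and 198 bases before the start, the Cnp match 168 bases before it and the Mog match 23 bases before it. A match describes these letters and is no evidence of binding, and the arrays did not measure binding.

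Between OSNs and residual epithelium, Mog and the chip A probe sets of Mobp were below the floor in both, Mag and Olig1 were within 2-fold, and Cnp and the pair of Mbp probe sets were lower in OSNs. Markers of some other cell types were also lower in OSNs, but not those of all. Astrocyte genes were called lower for 2 of 12 and higher for 1, and brain neuron genes lower for 1 of 10 and higher for 3. Blood and marrow markers were called lower in the sorted neurons for 11 of 13 measured genes, and their signals summed to 1844.1 (OSNs), 78990.1 (residual epithelium) and 1457.9 (brain). Microglia and macrophage genes were lower in OSNs for 9 of 11, with sums of 1281.6, 15231.5 and 6960.3 in the same order, and epithelial and sustentacular genes for 7 of 12, with sums of 14557.4, 24477.2 and 1701.4. Over all genes, each with 1 probe set, 12.4% were called lower in OSNs than in residual epithelium and 8.61% higher. The part of these cells in the Cnp and Mbp values was not tested.

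**Figure D3:**
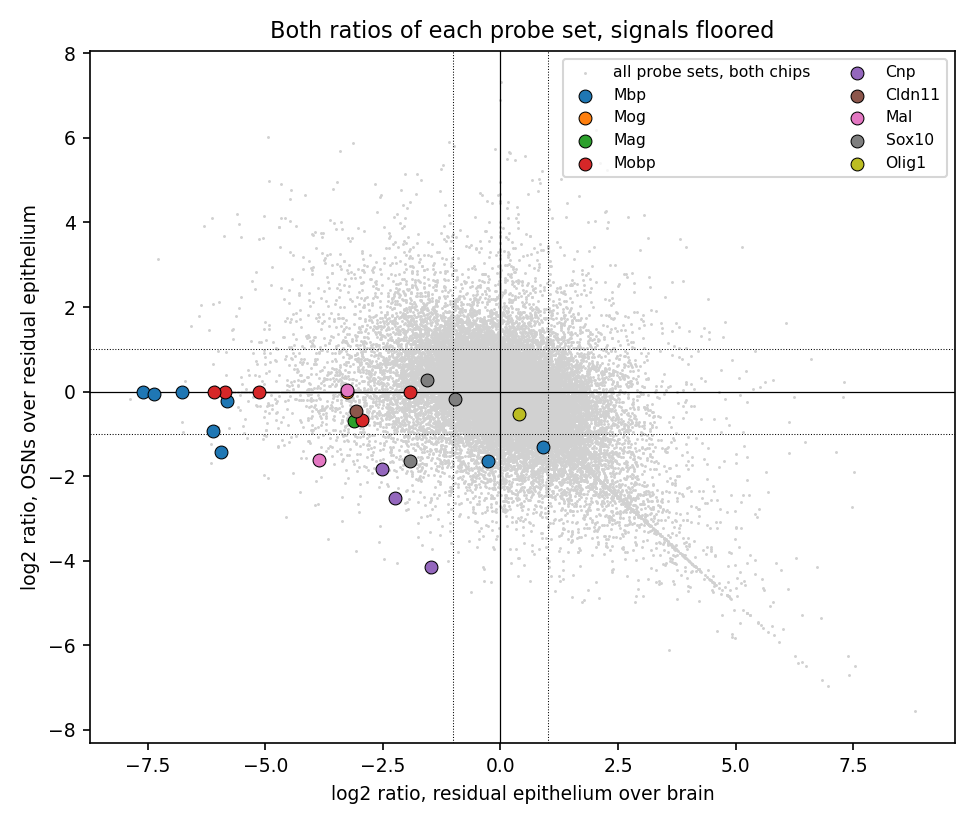
Log2 ratio of OSNs over residual epithelium (vertical axis) against log2 ratio of residual epithelium over brain (horizontal axis), from floored signals, for all probe sets of both chips (grey) and the 25 probe sets of the set (coloured by gene); dotted lines mark 2-fold. Most coloured points lie left of the -1 line and near 0 on the vertical axis, the 3 Cnp points lie lower, the Mog point lies behind a Mal point, and Olig1 and 2 Mbp points lie near or right of the centre.

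For each member, the 2 genes of the same chip with the nearest profile were found by the Euclidean distance between centred log2 signals over the 3 populations, after the floor was applied. A profile here holds only 3 values, and where a signal lay below the floor the distance is set partly by the floor, so no distance or rank is given for such pairs. This applies to every pair that involved Mog, Mbp or Cldn11, to Cldn5 and Dkk3 beside Mag, and to Cabp1 beside Mal. Among pairs measured above the floor in all 3 populations, the chip B probe set of Mobp had Rgs17 (distance 0.02 log2 units) and the glutamate receptor gene Grin2b (0.04). Cnp had no gene as close, with Nnat at 0.37 and Apoe, a lipid carrier gene of glia and macrophages, at 0.38. Apoe had 309.5 in OSNs, 4973.7 in the residual epithelium and 10744.0 in brain, so it shared with Cnp an order in which OSNs were lowest and brain highest. Sox10 was nearest to Apba3 and Pcdh1 (both 0.02), and Olig1 to the integrin gene Itgb1 and the sterol regulator gene Srebf1 (both 0.02).

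A wider list of oligodendrocyte and central myelin genes, with the members left out, was lower outside the brain in most of its genes. Of 32 measured genes, 25 were called lower in residual epithelium than in brain and 2 higher (median -2.11, against 0.00 over all genes), where 13.3% of all genes were lower and 15.7% higher. In OSNs against brain 24 were lower and 3 higher (median -2.33, against 0.00), where 14.2% of all genes were lower and 12.6% higher. The lowest ratios to brain were those of Bcas1, with 501.0, 303.8 and 11184.9 in OSNs, residual epithelium and brain (36.8-fold below brain in residual epithelium), and the septin gene Septin4, with 72.8, 111.0 and 3604.9 (32.5-fold). The 7 genes of the list below the floor in residual epithelium have only bounds and cannot be ranked against these. Across the 3 probe sets of Bcas1 that log2 ratio ran from -5.20 to -0.28. The highest were Olig2, the partner of Olig1, and the carnosine synthase gene Carns1. Olig2 had 941.8, 1844.9 and 281.1, so it was 6.56-fold higher in residual epithelium and 3.35-fold higher in OSNs than in brain. Carns1 had 5630.6, 349.6 and 72.1, with OSNs far above both others. Neither Olig1 nor Olig2 was called lower outside the brain.

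In OSNs against residual epithelium the wider list had 5 of 32 genes higher and 5 lower (median -0.05, against 0.00), where 8.61% of all genes were higher and 12.4% lower, so the lower share is near that of all genes. These 10 genes are named with their values known, except Carns1. Higher were Carns1 (16.1-fold), the deacetylase gene Sirt2 (16.0-fold), Plekhb1 (11.2-fold), the receptor gene Gpr37 (2.70-fold) and the myelin membrane gene Pllp (2.10-fold). Lower were Evi2a (8.35-fold), the carbonic anhydrase gene Car2 (3.51-fold), the pteridine reductase gene Qdpr (3.12-fold), Prr18 (2.72-fold) and Ndrg1 (2.39-fold), a gene needed for peripheral myelin. The log2 ratio of OSNs over residual epithelium ran from -3.69 to -3.06 across the 2 probe sets of Evi2a, and that of residual epithelium over brain from -0.55 to 3.69. Sirt2 had 2027.8 in OSNs, 126.4 in the residual epithelium and 1320.7 in brain, and Plekhb1 had 14105.6, 1254.3 and 5275.8. None of the members was called higher in OSNs.

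Oligodendrocyte precursor genes were lower in residual epithelium than in brain for 7 of 11 and higher for 1 (median -2.13), and lower in OSNs than in brain for 8 with 1 higher (median -2.13). Over all genes, 13.3% were lower and 15.7% higher in the first comparison, and 14.2% and 12.6% in the second. Olig2 and Gpr17 were counted in the wider list too. Gpr17, a receptor of committed precursors, was at least 11.8-fold below brain in residual epithelium, and Tnr, a matrix protein gene, was at least 10.6-fold below it. Among the genes that passed the signal filter, Olig2 and Sox6, which is also used in other lineages, had the highest ratios of residual epithelium over brain, with Sox6 at 0.39 on the log2 scale, which was not called. Between OSNs and residual epithelium, Sox6 was the 1 gene of the 11 called lower and 0 were higher (median -0.05). Of all genes, 12.4% were lower and 8.61% higher there.

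Of 11 peripheral myelin and Schwann cell genes, 4 were lower in residual epithelium than in brain and 2 higher (median 0.13), where 13.3% of all genes were lower and 15.7% higher, so the count higher is near the share of all genes. In OSNs against brain 4 were lower and 1 higher (median -0.81), where 14.2% of all genes were lower and 12.6% higher. Pmp22, a compact peripheral myelin protein gene used by many cells, had 83.5 in OSNs, 223.5 in the residual epithelium and 1119.8 in brain, and Cdh19, a cadherin of Schwann cell precursors, had 22.2, 118.2 and 568.6. Egr2, the zinc finger factor of myelinating Schwann cells that myeloid and lymphoid cells also use, had 49.1, 346.5 and 123.0, and Mpzl1 had 3675.3, 3930.0 and 1499.5. In OSNs against residual epithelium 3 of 11 were lower and 0 higher (median -0.10). Ensheathing glia genes were lower in residual epithelium than in brain for 7 of 10 (median -2.58), and 3 of 10 were lower in OSNs than in residual epithelium (median -0.28). Of these 10, 2 were below the floor in residual epithelium and 3 reached the chip median there. The list shares Cdh19 and Erbb3 with the Schwann cell list, and S100b and Gfap with the astrocyte list. Of all genes, 12.4% were lower in OSNs than in residual epithelium and 8.61% higher.

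The remaining lists place the set among the other brain genes. Astrocyte genes were lower in residual epithelium than in brain for 12 of 12 (median -3.61) and brain neuron genes for 10 of 10 (median -4.82), so the members' median of -3.08 over 9 genes, with 1 probe set each, lay between those of wider oligodendrocyte and astrocyte genes. Mature OSN genes were higher in OSNs than in residual epithelium for 10 of 10 (median 4.78). Sterol synthesis genes, which supply the cholesterol of myelin and of every other membrane, were lower in residual epithelium than in brain for 2 of 9 and higher for 2 (median 0.51). Blood and marrow genes were higher in residual epithelium than in brain for 11 of 13 and epithelial and sustentacular genes for 12 of 12 (medians 4.57 and 3.06), and microglia and macrophage genes for 3 of 11 (median 0.44). Of all genes, 13.3% were lower in residual epithelium than in brain and 15.7% higher, and 8.61% were higher in OSNs than in residual epithelium.

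**Figure D4:**
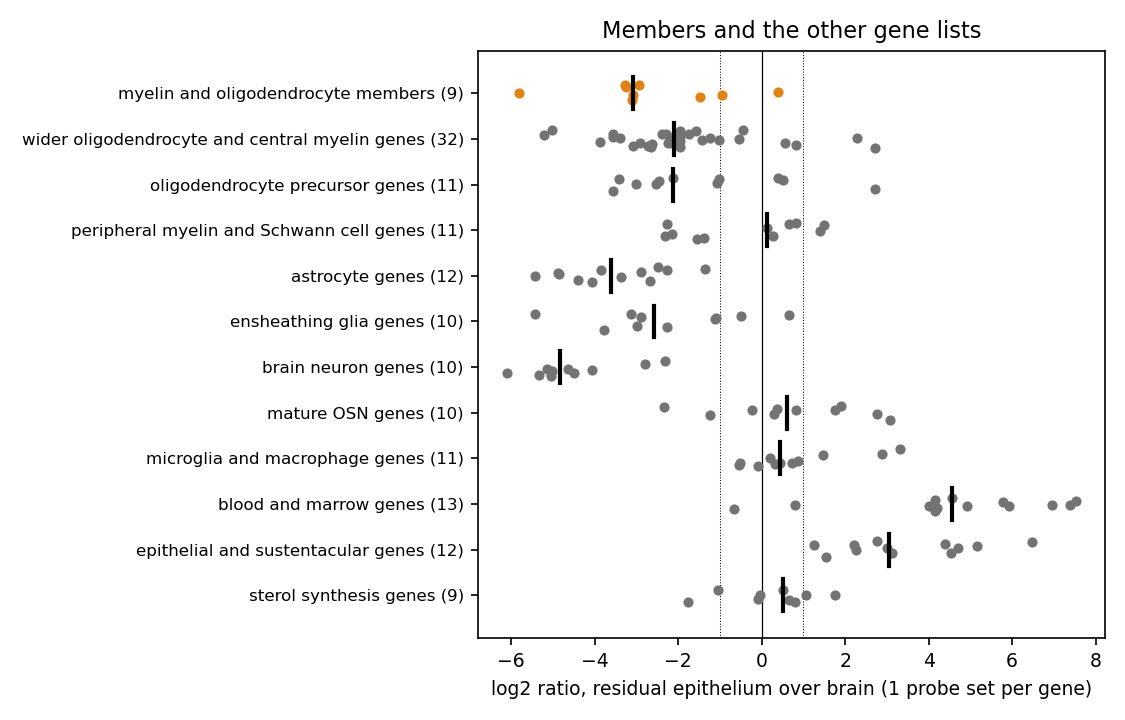
Log2 ratio of residual epithelium over brain for each measured gene (1 probe set per gene, 1 point each) of the 9 members (orange) and the other lists (grey), with the number of genes in brackets, medians as black bars and dotted lines at 2-fold. The bars of the members, wider oligodendrocyte, astrocyte and brain neuron lists lie at -3.08, -2.11, -3.61 and -4.82, and that of the peripheral myelin list at 0.13.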

How the data were processed

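Biotin-labelled total RNA from 3 mouse populations was hybridised to 1 Affymetrix array per population and chip (6 arrays). The values are deposited intensities on a linear scale, and MAS5 is named for 5 of the 6 arrays in the submitters' processing notes. The trimmed means of all arrays lay between 499.6 and 499.9. The sources used here do not give background handling or scan settings.

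Probe sets were named from the platform annotation, updated through Entrez to RefSeq symbols; those with several symbols or none stayed unnamed, and 64 control probe sets per chip were left out of counts. Signals below the lower quartile of the chip were raised to it, ratios were taken within a chip as log2, and the call rule is that of the report. For gene lists, a gene was read from 1 probe set, that whose mean log2 signal ranked highest on its chip. Text names all members, their 2 nearest genes (distances only where both were above the floor in all populations), and the 2 highest and 2 lowest genes against brain, among those passing the signal filter, of the oligodendrocyte, precursor and Schwann cell lists; other lists are given as counts. The members and lists were chosen with earlier results of these data known. The number of arrays limits the precision. The ratio and call steps were tested on simulated arrays, for large decreases in OSNs against brain among probe sets with high brain signal. The other comparisons, the gene lists, the nearest genes and the promoter search were not part of that test. Python 3.11.15, numpy 2.4.6 and pandas 2.3.3 were used.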

Additional observations from a re-analysis of the deposited data

How the results depend on the processing

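The count of probe sets called higher stayed at 0 in each comparison under every alternative run. Those lower in OSNs than in brain numbered 19 to 23, and those lower in residual epithelium than in brain 17 to 22. The count lower in OSNs than in residual epithelium, 5 as reported, became 8 with no signal filter (adding Mbp 1433532_a_at, Mal 1417275_at and Sox10 1451689_a_at), 3 with the filter at percentile 75 and 2 at a 4-fold threshold. Scaling the chips on their shared probe sets moved the median log2 ratio of the probe sets that passed the signal filter. On chip A it moved by -0.13 (OSNs over residual epithelium), -0.18 (OSNs over brain) and -0.05 (residual epithelium over brain). On chip B it moved by 0.14, -0.40 and -0.53. The share of higher among all calls then moved from 43.6% to 31.3% for OSNs against brain and from 50.4% to 37.3% for residual epithelium against brain over both chips, and on chip B from 44.8% to 28.3% and from 50.1% to 26.7%. The members lower under it numbered 6, 23 and 22. Quantile normalization took Sox10 1424985_a_at and 1425369_a_at below 2-fold against brain in OSNs (-0.99 and -0.97). Adding the floor to every signal, in place of raising low signals to it, did the same (-0.98 and -0.92). With the floor at percentile 40, Mobp 1441308_at (-0.83) and Sox10 1425369_a_at (-0.91) fell below 2-fold against brain in both OSNs and residual epithelium. Over all runs that gave ratios, 106 moved by at least the SD between chips and 344 did not. With the floor at percentile 10, 11 ratios of OSNs over residual epithelium moved and 14 did not, with the counts of calls unchanged. Mobp 1421010_at and 1433785_at went from 0.00 to 1.33 and 1.35, and Mbp 1456228_x_at from -0.92 to -2.97. Some uncalled ratios of OSNs over residual epithelium changed sign: Mbp 1419646_a_at (-0.24 to 0.02) and Sox10 1424985_a_at (-0.18 to 0.01) under quantile normalization, and Mal 1432558_a_at (0.04 to -0.08) under shared scaling. The cause of these changes was not tested. No paired analysis was possible because each population had 1 array per chip.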
